A study of Mus musculus with 94 samples.

Results

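The Igf2-H19 and Kcnq1ot1 domains are neighbouring imprinted clusters on distal mouse chromosome 7, and 10 of their genes were followed here among the 24767 genes named in the deposited tables. The genes were taken by symbol: Igf2, H19, Kcnq1ot1, Cdkn1c, Phlda2, Slc22a18, Kcnq1, Ascl2, Tssc4 and Nap1l4. The study used degron tags on WAPL, which releases cohesin from DNA, and on RAD21, a subunit of the cohesin ring itself, in differentiating mouse embryonic stem cells. Of its 94 samples 18 were analysed here, 14 of them RNA libraries made from poly(A) transcripts and 4 of them PRO-seq. PRO-seq labels RNA that is still being made by engaged polymerase.

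Both degron lines were embryonic stem cells with a Tsix-stop allele from a CAST/Ei x 129/Sv/Jae cross, and both treatments shared that background. In the WAPL-FKBP(degron) line, 500 nM dTAG-13, a small molecule that sends FKBP-tagged proteins for destruction, was given for 3 days. It was given from day 7 to day 10 of differentiation in 2 cultures of clone H7, or from day 4 to day 7 in 2 cultures of clone H7 and 1 of clone H2. In the RAD21-FKBP(degron) line, clones C4 and G9 received 500 nM dTAG-13 for 8 h, and RNA was taken at day 10 and PRO-seq material at day 7. Each treated library had a DMSO library of the same clone, which received the same volume of vehicle. Cells were kept on γ-irradiated mouse embryonic fibroblasts with LIF, then formed embryoid bodies without LIF in suspension for 3 days and on gelatin from day 4. Each clone stands for 1 derivation of a line, and no parental line without a degron was among these libraries. Whether 2 cultures of 1 clone were separate experiments is not given, so the spread between them may be technical. The tags act on protein, so the RNA of Wapl or Rad21 does not check the depletion, and no protein measurement was used here.

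Library totals ran from 8413212 to 35388461 counts for RNA and from 14269544.5 to 34335988.5 for PRO-seq. Levels are in CPM, read counts scaled to library size within each table, and they are not corrected for gene length, so they are compared between libraries and not between genes. The labelled cell type was stem cells, and all 8 pluripotency markers were detected in both RNA tables of day 10 as well as at day 7. Their summed level was 1968 to 2764 CPM in dTAG-13 and 2498 to 2796 CPM in DMSO at WAPL days 4 to 7, and it was 966 to 1273 CPM in dTAG-13 and 1163 to 1593 CPM in DMSO in the RAD21 RNA libraries. Embryoid bodies hold cells of several kinds, and in such bulk libraries fewer cells of a type and less RNA per cell cannot be told apart. The counts were not split by allele, so they say nothing of which parental copy a transcript came from.

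In the mouse, Igf2, a fetal growth factor, is made from the paternal chromosome and H19, a long noncoding RNA, from the maternal one. CTCF binds the unmethylated maternal control region between them and cohesin gathers at such sites, while both genes draw on shared enhancers beyond H19. Further along, the noncoding RNA Kcnq1ot1 starts inside the gene Kcnq1 on the paternal chromosome, runs antisense to it, and silences neighbouring genes in cis, among them the cell-cycle inhibitor gene Cdkn1c and the placental growth restrainer gene Phlda2.

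The start-site windows of 3 genes of the Kcnq1ot1 domain are shown because that domain held every member called higher in both RAD21 assays. CCAAT boxes in the Kcnq1ot1 promoter are also known binding sites of the factor NF-Y. Of the members called higher, Cdkn1c and Kcnq1 had no matched window. Ascl2 was called in neither RAD21 assay. The windows of Tssc4, with 1 CCAAT box, and Slc22a18, with 0, are not shown, so the windows shown do not stand for the domain in that motif. Each window holds 250 bases before and 50 after the annotated start, read 5′ to 3′ on the gene's own strand, from RefSeq on GRCm38.p6. Capitals mark CCAAT on that strand or ATTGG, its reverse complement. Kcnq1ot1 lies at chr7:143296498-143296797 (minus strand), Phlda2 at chr7:143502475-143502774 (minus strand) and Ascl2 at chr7:142969215-142969514 (minus strand).
Kcnq1ot1: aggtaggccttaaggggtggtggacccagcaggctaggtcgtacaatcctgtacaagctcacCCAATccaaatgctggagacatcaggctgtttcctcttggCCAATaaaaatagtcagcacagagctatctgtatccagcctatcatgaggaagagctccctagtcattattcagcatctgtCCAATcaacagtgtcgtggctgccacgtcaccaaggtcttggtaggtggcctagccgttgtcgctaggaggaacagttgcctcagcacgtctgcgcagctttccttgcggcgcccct
Phlda2: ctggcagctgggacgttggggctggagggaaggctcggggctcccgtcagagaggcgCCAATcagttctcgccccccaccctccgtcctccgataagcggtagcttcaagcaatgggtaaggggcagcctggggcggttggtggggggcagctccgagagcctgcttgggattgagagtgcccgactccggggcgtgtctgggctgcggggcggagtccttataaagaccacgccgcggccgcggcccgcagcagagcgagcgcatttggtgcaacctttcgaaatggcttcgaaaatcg
Ascl2: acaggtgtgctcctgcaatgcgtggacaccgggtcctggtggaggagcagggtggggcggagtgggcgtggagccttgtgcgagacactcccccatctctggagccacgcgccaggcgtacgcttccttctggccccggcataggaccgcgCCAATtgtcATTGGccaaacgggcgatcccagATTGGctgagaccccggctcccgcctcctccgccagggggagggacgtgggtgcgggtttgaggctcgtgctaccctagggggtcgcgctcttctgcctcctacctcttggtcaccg

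The Kcnq1ot1 window held 3 CCAAT boxes, all on the gene's own strand, at positions -188, -148 and -67 from the start. Phlda2 held 1, at -193, and was the one member window with the letters TATAAA. Ascl2 also held 3, at -99, -90 and -67, with 2 of them on the opposite strand. CCAAT on either strand occurred in 37.4% of 32851 mouse windows of the same length, TATAAA in 13.6%. RefSeq windows were matched for 6 members, 9 windows in all, of which 4 belonged to Igf2, and 5 of the 9 held CCAAT. GC content was 53.3% for Kcnq1ot1, 65.7% for Phlda2 and 67% for Ascl2, against a median of 52.7% over all windows. These matches describe letters and not bound sites.

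H19 also carries the hairpin of miR-675, and both mature forms are shown because the deposited tables list a Mir675 entry that overlaps H19. Capitals mark the seed, bases 2 to 8, and the sequences are from RefSeq on GRCm38.p6, at chr7:142577112-142577133 for the 5p form and chr7:142577078-142577099 for the 3p form, both on the minus strand.
mmu-miR-675-5p: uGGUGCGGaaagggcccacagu
mmu-miR-675-3p: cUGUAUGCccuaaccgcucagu

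The seeds of the pair differ. The Mir675 entry in poly(A) RNA counts fragments of the longer transcript and not the mature forms.

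In the WAPL line treated from day 4 to day 7, 3 of the 8 members that could be tested rose, Igf2, H19 and Cdkn1c, and 0 fell. Across all 14544 genes tested in that comparison 15.2% were called, 9.46% higher and 5.73% lower, at an adjusted p under 0.05 (edgeR quasi-likelihood F-test, Benjamini-Hochberg). At an unadjusted p under 0.05 these were 5 of 8 members and 31.8% of all genes. The median log2 fold change was 0.63 over the 8 members and -0.01 over all genes tested. The calls above come from a fit with a clone term and no matching of libraries by number. With each treated library matched to the DMSO library of its number, 5 members were called instead of 3, and 3993 genes instead of 2209. Kcnq1ot1 and Phlda2 were the members added, both higher. Without DMSO H7 replicate 1 there were 1 member and 967 genes, and without DMSO H7 replicate 2 there were 1 and 977. Leaving out DMSO H2 or dTAG-13 H2 left 2 members each, with 341 and 342 genes. Without dTAG-13 H7 replicate 1 the counts were 4 and 4432, and without dTAG-13 H7 replicate 2 they were 5 and 2285. From day 7 to day 10, without matching, 0 of 8 members were called by edgeR, none of the 8 had an unadjusted p under 0.05 and DESeq2 called 0. Over all 14110 genes, unmatched edgeR called 0%, with 926 genes (6.56%) at an unadjusted p under 0.05, and DESeq2 called 44. With libraries matched by number, edgeR's quasi-likelihood test called H19, Kcnq1ot1 and Cdkn1c (adjusted p 0.00375, 9.65e-09 and 0.0319). That fit rests on 2 pairs of 1 clone, and no label ties the pairs beyond clone, day and number. Same-numbered libraries did deviate together from their group means (r = 0.785). The calls of this window thus depend on the matching. Calls for days 7 to 10 given below are unmatched unless stated. The median log2 fold change there was 0.20 over the members and -0.01 over all genes.

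In the RAD21 line treated for 8 h, Kcnq1ot1, Cdkn1c and Phlda2 rose and Igf2 and H19 fell in RNA at day 10, 3 and 2 of the 8 members tested. Over 14470 genes 18.7% were called, 9.83% higher and 8.89% lower (edgeR quasi-likelihood F-test, Benjamini-Hochberg). The same 5 members and 29% of all genes had an unadjusted p under 0.05. In PRO-seq at day 7, 4 of 8 members rose, namely Kcnq1ot1, Cdkn1c, Phlda2 and Kcnq1, and 0 fell, beside 10.6% of 16496 genes called, 5.9% higher and 4.66% lower. An unadjusted p under 0.05 held for 4 of 8 members and 23.8% of those genes. The median log2 fold change was 0.06 over members and 0.01 over all genes in RNA, and 0.37 over members and 0.00 over all genes in PRO-seq. These calls rest on 2 clones with 1 residual degree of freedom: with no clone term edgeR called 0 members in either assay, and DESeq2 with the clone term called 3 in RNA and 1 in PRO-seq. Leaving out 1 library leaves too few for the clone term. Without that term edgeR called 1 member without DMSO C4 (Igf2) and 1 without dTAG-13 C4 (Kcnq1ot1), 0 without either G9 library, and 0 in PRO-seq whichever library was left out.

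**Figure D1:**
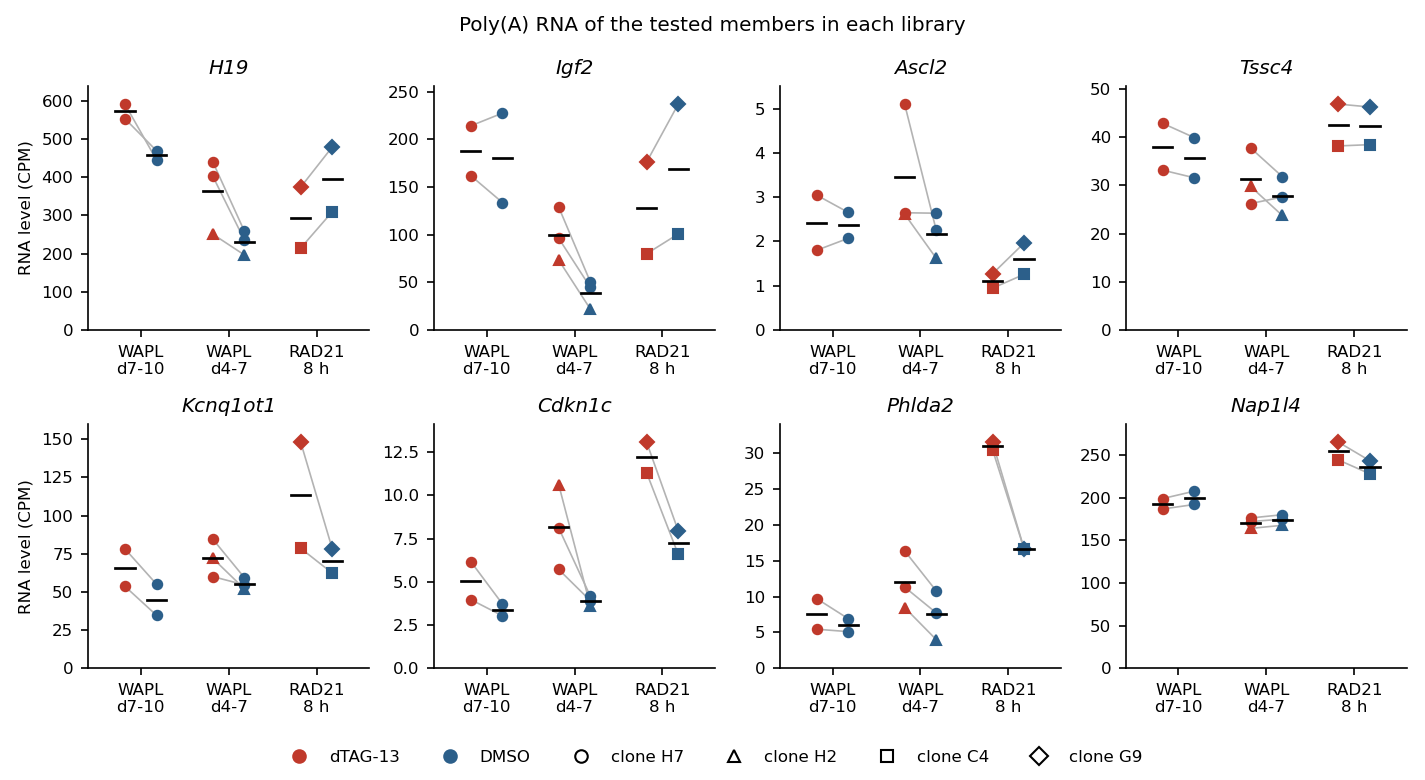
RNA level in CPM (vertical axes, from 0) of the 8 members with enough RNA reads, in dTAG-13 (red, left of each pair) and DMSO (blue, right) libraries of the later WAPL treatment, of the earlier one, and of RAD21 at day 10. Lines join libraries of the same clone and number, marker shapes give the clone and black bars the mean. Igf2 at WAPL days 4 to 7 and Phlda2 in the RAD21 line show treated libraries that all sit above the DMSO ones.

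Igf2 encodes the growth factor of the first cluster. At WAPL days 4 to 7 it stood at 96.3, 129 and 73.5 CPM in dTAG-13 libraries (H7 replicate 1, H7 replicate 2 and H2), against 44.9, 50.6 and 22.0 CPM in the DMSO libraries in the same order. The treated libraries were all above the DMSO libraries, and H2 was the lowest clone under both treatments. The mean was 99.6 ± 27.9 CPM in dTAG-13 and 39.2 ± 15.1 CPM in DMSO (SD, n = 3 each). This was a log2 fold change of 1.39 (SE 0.15), with an adjusted p of 0.00248 by edgeR's quasi-likelihood test. The H2 pair, the lowest in level, had the largest change of the 3 pairs, 1.74 on the log2 scale, beside 1.10 and 1.35 in the H7 pairs. The call held without any 1 of the 6 libraries, with adjusted p at most 0.0342 by the same test.

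At WAPL days 7 to 10, Igf2 stood at 162 and 214 CPM in dTAG-13 and at 134 and 228 CPM in DMSO, for H7 replicates 1 and 2. The groups overlapped and the pairs differed in sign, 0.28 and -0.09 on the log2 scale. The log2 fold change was 0.06 (SE 0.31), with an adjusted p of 0.999 in edgeR's quasi-likelihood test. The log2 effect at days 7 to 10 minus that at days 4 to 7 was -1.32 (SE 0.36) in 1 fit over 10 libraries. Its unadjusted p was 0.00541 and its adjusted p was 1 (edgeR quasi-likelihood). With libraries matched by number the difference was -1.25 and the adjusted p 0.0411, so the call depends on that term. In the same 10-library fit, 0 of 14326 genes (0%) passed for this difference in edgeR, 423 (2.95%) had an unadjusted p under 0.05, with Igf2 the 1 of 8 members among them, and DESeq2 called 4 genes. The median difference was -0.34 over the members and 0.00 over all genes.

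In the RAD21 line at day 10, Igf2 stood at 80.1 CPM in C4 and 176 CPM in G9 with dTAG-13, against 101 CPM in C4 and 237 CPM in G9 with DMSO. The clones differed more than the treatments did, and the groups overlapped. Within clones the changes were alike, -0.33 in C4 and -0.43 in G9 on the log2 scale. The fitted log2 fold change was -0.38 (SE 0.06, adjusted p 4.85e-09, edgeR quasi-likelihood with a clone term). Without DMSO C4, and so without the clone term, it was -0.89, and without DMSO G9 it was 0.34. Igf2 is not in the PRO-seq table that was used.

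H19, the noncoding partner of Igf2, had 402, 439.9 and 251 CPM in dTAG-13 libraries at WAPL days 4 to 7, against 235 (H7 replicate 1), 258 (H7 replicate 2) and 196 CPM (H2) in DMSO libraries. The H2 dTAG-13 library lay within the range of the DMSO libraries. Its log2 fold change was 0.63 (SE 0.12, adjusted p 0.0111, edgeR quasi-likelihood), and the pairs gave 0.77, 0.77 and 0.35. Without DMSO H7 replicate 1 the adjusted p was 0.054, and without DMSO H7 replicate 2 it was 0.0525 (edgeR quasi-likelihood). The H2 pair had the largest Igf2 change and the smallest H19 change of the 3 pairs, a difference between clones that was not tested.

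At WAPL days 7 to 10, H19 had 591 and 553 CPM in dTAG-13 and 445 and 469 CPM in DMSO. The groups did not overlap, yet the log2 fold change of 0.32 (SE 0.15) had an adjusted p of 0.802 in edgeR's quasi-likelihood test without matching. With libraries matched by number the adjusted p was 0.00375 in the same test, so the call depends on that term. In the RAD21 line H19 had 215 CPM in C4 and 374 CPM in G9 with dTAG-13, against 309.7 CPM in C4 and 479 CPM in G9 with DMSO. It was lower in the treated library of each clone, with a log2 fold change of -0.44 (SE 0.07, adjusted p 3.74e-08, edgeR quasi-likelihood). With 1 library left out, and so no clone term, it was not called: the value was -0.70 without DMSO C4, -0.09 without dTAG-13 C4, -0.08 without DMSO G9 and -0.88 without dTAG-13 G9, with adjusted p of at least 0.161 in the same test.

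The entries that overlap these genes, Igf2os, a transcript antisense to Igf2, and Mir675, inside H19, had the signs of their partners at WAPL days 4 to 7 and in RAD21 RNA. They were chosen for that overlap and lie outside the rule for named genes. Igf2os changed by 1.33 on the log2 scale (adjusted p 0.0336) at WAPL days 4 to 7 and -0.86 (adjusted p 0.000117) in RAD21 RNA, by edgeR's quasi-likelihood test. Mir675 had 0.69 (adjusted p 0.0278) and -0.50 (adjusted p 0.012) in the same comparisons and test. At WAPL days 7 to 10 Igf2os changed by -0.14 and 0.05 in the H7 pairs, opposite in sign to Igf2 in each, and Mir675 by 0.27 and 0.50. In RAD21 PRO-seq Igf2os had a log2 fold change of 0.35 (SE 0.39, adjusted p 0.646, edgeR quasi-likelihood). It was higher with dTAG-13 in each clone, by 0.34 in C4 and 0.37 in G9, and was not called. Mir675 is not in the PRO-seq table. The counting rule and its use of strand are not given, so reads of a gene and of its overlapping or antisense partner cannot be told apart.

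Without any dTAG-13, both genes were higher later in differentiation. Igf2 had 134 and 228 CPM in the DMSO libraries of day 10, against 44.9, 50.6 and 22.0 CPM in those of day 7. H19 had 445 and 469 CPM at day 10, against 235, 258 and 196 CPM at day 7. Every DMSO library of day 10 was above each of day 7 for both genes. The joint fit gave log2 fold changes, day 10 over day 7, of 1.95 (SE 0.26, adjusted p 0.00624) for Igf2 and 0.77 (SE 0.13, adjusted p 0.0155) for H19, by edgeR's quasi-likelihood test. They were 2 of 8 members called, both higher, beside 6% of 14326 genes called, 4.47% higher and 1.53% lower. At an unadjusted p under 0.05 these were 2 of 8 members and 21.6% of all genes. The median log2 difference was 0.02 over the members and -0.01 over all genes. The H19 call was lost without day 7 DMSO H7 replicate 1 (adjusted p 0.0753), day 7 DMSO H7 replicate 2 (0.0918) or day 10 DMSO H7 replicate 2 (0.0739), by the same edgeR test. Day and deposited table coincide here and cannot be told apart, and these DMSO libraries are also the controls of the dTAG-13 comparisons.

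Markers of other cell types moved with Igf2 and H19 at WAPL days 4 to 7. The summed trophoblast list (10 of 10 markers in the table) was 1127 to 1439 CPM in dTAG-13 and 575 to 745 CPM in DMSO, with 5 of 9 tested markers higher and 1 lower. Krt18, a keratin of simple epithelia, changed by 1.35 on the log2 scale (adjusted p 0.00248) and Eomes, a transcription factor of early trophoblast and mesendoderm, -1.48 (adjusted p 0.000738), by edgeR's quasi-likelihood test. Krt18 and Krt8, a like keratin named here for its share, made up most of the summed level. Their means were 699 and 404 CPM in dTAG-13 and 276 and 174 CPM in DMSO. The parietal endoderm list (8 of 8) was 1333 to 1442 CPM in dTAG-13 and 885 to 1106 CPM in DMSO. Of its 7 tested markers 4 were higher, among them Col4a2 (0.70, adjusted p 0.00775) and Sparc (0.56, adjusted p 0.0139), by the same test. That test did not call Gata4 (0.36, adjusted p 0.193) or Gata6 (-0.06, adjusted p 0.927). Sparc, Lamb1, Col4a1 and Col4a2, named for their share, made up most of the sum. Their means were 635, 359, 213 and 144 CPM in dTAG-13 and 432, 283, 175 and 89.2 CPM in DMSO. The fibroblast and feeder list (12 of 12) was 156 to 174 CPM in dTAG-13 and 109.7 to 127 CPM in DMSO, with 4 of 10 higher and 1 lower. None of the markers in these 3 lists was at 0 in all libraries of a group. Beside these counts, 9.46% of all genes tested were called higher and 5.73% lower. The part of these markers in the Igf2 and H19 results was not tested.

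Other lists shifted as well in that comparison. Mesoderm and cardiac muscle markers (11 of 11) summed to 264 to 426 CPM in dTAG-13 and 208 to 246 CPM in DMSO, with 5 of 9 higher and 1 lower. Neural markers (8 of 8) summed to 208 to 261 CPM in dTAG-13 and 328 to 396 CPM in DMSO, with 1 of 6 lower. Visceral endoderm markers (10 of 10) summed to 16.5 to 22.6 CPM in dTAG-13 and 12.96 to 17.4 CPM in DMSO, with 1 of 7 higher and 1 lower, and Ttr was at 0 in all dTAG-13 libraries. Of the pluripotency markers, 1 of 8 was lower, Sox2 (-0.51, adjusted p 0.0144, edgeR quasi-likelihood). In the DMSO comparison of day 10 with day 7, 7 of 9 trophoblast, 5 of 10 feeder and 4 of 7 parietal endoderm markers were higher. So were 4 of 11 mesoderm and 2 of 5 visceral endoderm markers, while 0 of 5 neural and 0 of 8 pluripotency markers were called. Over all genes tested there, 4.47% were called higher and 1.53% lower.

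**Figure D2:**
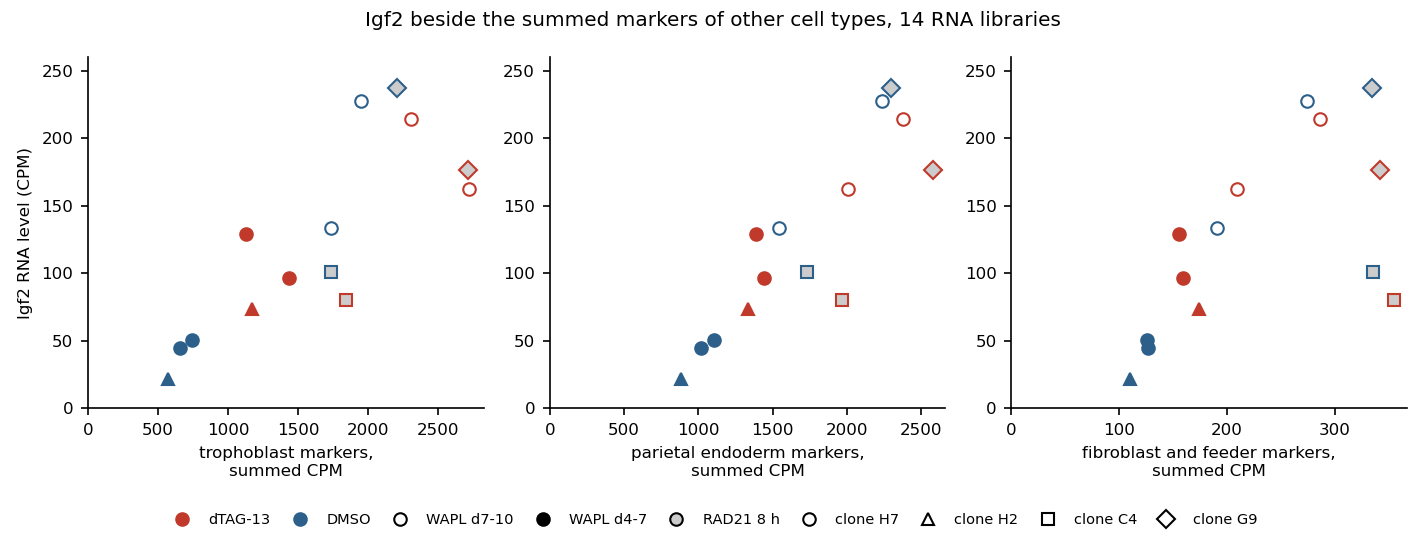
Igf2 RNA level in CPM (vertical axis) against the summed CPM of trophoblast, parietal endoderm and feeder markers (horizontal axes) in the 14 RNA libraries, red for dTAG-13 and blue for DMSO, with open symbols for the later WAPL treatment, solid ones for the earlier and grey ones for RAD21. At WAPL days 4 to 7 the dTAG-13 libraries (73.5 to 129 CPM of Igf2) lie above and to the right of the DMSO libraries (22.0 to 50.6 CPM) in all 3 panels, and values from different tables were scaled separately. The keratins Krt8 and Krt18 made up most of the trophoblast sum, and Sparc, Lamb1, Col4a1 and Col4a2 most of the parietal endoderm sum.

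Kcnq1ot1, the silencing RNA of the second cluster, had 60.0, 84.6 and 72.0 CPM in dTAG-13 libraries at WAPL days 4 to 7, against 54.6, 59.3 and 51.9 CPM in DMSO libraries (H7 replicate 1, H7 replicate 2 and H2). The groups did not overlap, by a margin of less than 1 CPM. Without matching, the log2 fold change was 0.39 (SE 0.14) with an adjusted p of 0.0942, and 0.37 with an adjusted p of 0.0184 when libraries were matched by number (both edgeR quasi-likelihood). It was also called without dTAG-13 H7 replicate 1 (0.53, adjusted p 0.0043, edgeR quasi-likelihood). At days 7 to 10 it had 53.7 and 78.2 CPM in dTAG-13 and 34.7 and 55.0 CPM in DMSO, with overlap between groups and higher values in the treated library of each pair. The log2 fold change there was 0.56 (SE 0.31, adjusted p 0.849, edgeR quasi-likelihood) without matching. With libraries matched by number the adjusted p was 9.65e-09 in the same test, so the call depends on that term.

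In the RAD21 line Kcnq1ot1 had 78.6 CPM in C4 and 148 CPM in G9 with dTAG-13, against 62.3 CPM in C4 and 78.1 CPM in G9 with DMSO. The C4 treated library stood barely above the G9 DMSO library, and the change was 0.34 in C4 and 0.92 in G9 on the log2 scale. The fitted value was 0.64 (SE 0.06, adjusted p 2.78e-26, edgeR quasi-likelihood), while DESeq2 gave 0.63 with an adjusted p of 0.381. Without dTAG-13 C4 it was 1.07, and without dTAG-13 G9 it was 0.16, both with no clone term and so with the clone difference in them. In PRO-seq at day 7 it had 773 CPM in C4 and 937 CPM in G9 with dTAG-13, against 676 CPM in C4 and 826 CPM in G9 with DMSO. Each clone rose by a like amount, 0.19 in C4 and 0.18 in G9, and the groups overlapped. The fitted log2 fold change was 0.19 (SE 0.06, adjusted p 0.0325, edgeR quasi-likelihood), and DESeq2's adjusted p was 0.24. With 1 library left out and no clone term it was 0.05 without DMSO C4, 0.32 without dTAG-13 C4, 0.34 without DMSO G9 and 0.04 without dTAG-13 G9, and not called. The RNA and PRO-seq values come from different days and assays, and their difference was not tested.

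Cdkn1c encodes p57, an inhibitor of cyclin-dependent kinases, and is expressed from the maternal copy. At WAPL days 4 to 7 it had 8.11, 5.72 and 10.6 CPM in dTAG-13 libraries, against 4.17, 3.91 and 3.61 CPM in DMSO libraries (H7 replicate 1, H7 replicate 2 and H2). The treated libraries were all above the DMSO libraries, and H2 was the highest of the treated and the lowest of the DMSO ones. On the log2 scale it rose by 0.97 (SE 0.23, adjusted p 0.0265, edgeR quasi-likelihood). The call was lost without DMSO H7 replicate 1 (adjusted p 0.0614), DMSO H7 replicate 2 (0.0739), DMSO H2 (0.168) or dTAG-13 H2 (0.172), in the same edgeR test. At days 7 to 10 Cdkn1c had 6.17 and 3.97 CPM in dTAG-13 and 3.72 and 3.03 CPM in DMSO, and the groups did not overlap. Its log2 fold change was 0.57 (SE 0.33, adjusted p 0.852, edgeR quasi-likelihood) without matching. With libraries matched by number the adjusted p was 0.0319 in the same test.

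RAD21 depletion gave Cdkn1c 11.3 CPM in C4 and 13.1 CPM in G9 with dTAG-13, against 6.59 CPM in C4 and 7.95 CPM in G9 with DMSO. Both treated libraries were above both DMSO libraries. That gave a log2 fold change of 0.75 (SE 0.13, adjusted p 4.38e-07, edgeR quasi-likelihood), with a DESeq2 adjusted p of 0.0518. In PRO-seq it had 30.6 CPM in C4 and 28.7 CPM in G9 with dTAG-13, against 10.97 CPM in C4 and 14.3 CPM in G9 with DMSO. That was the smallest adjusted p of the members in PRO-seq, 8.53e-08 for a log2 fold change of 1.26 (SE 0.14, edgeR quasi-likelihood), and DESeq2 gave 8.35e-07. It was the one member called in PRO-seq by both tools.

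Phlda2 encodes a small protein with a pleckstrin-homology domain that limits placental growth. At WAPL days 4 to 7 it had 16.4, 11.3 and 8.47 CPM in dTAG-13 libraries, against 10.8, 7.72 and 3.99 CPM in DMSO libraries, higher in the treated library of each of 3 pairs though the groups overlapped. Its unmatched log2 fold change was 0.69 (SE 0.22) with an adjusted p of 0.0711, and 0.68 with an adjusted p of 0.00754 when libraries were matched by number (edgeR quasi-likelihood). Without dTAG-13 H7 replicate 2 the adjusted p was 0.0186 in the same test. At days 7 to 10 it had 9.71 and 5.44 CPM in dTAG-13 and 6.90 and 5.11 CPM in DMSO, which overlapped, with a log2 fold change of 0.32 (SE 0.37, adjusted p 0.963, edgeR quasi-likelihood).

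Phlda2 in the RAD21 line had 30.5 CPM in C4 and 31.6 CPM in G9 with dTAG-13, against 16.6 CPM in both DMSO libraries. The 2 clones were closer to each other than for any other member called in RNA, and the treatments were well apart. The log2 fold change was 0.90 (SE 0.09, adjusted p 3.6e-22, edgeR quasi-likelihood), and DESeq2 gave an adjusted p of 9.17e-06. In PRO-seq it had 2.07 CPM in C4 and 2.20 CPM in G9 with dTAG-13, against 0.8002 CPM in C4 and 0.780 CPM in G9 with DMSO. Those levels rest on few reads, 48 and 31.5 deposited counts with dTAG-13 and 27.5 and 11 with DMSO. The log2 fold change was 1.41 (SE 0.42, adjusted p 0.0267, edgeR quasi-likelihood), and DESeq2 gave no adjusted p for it.

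Kcnq1, a voltage-gated potassium channel gene that hosts the start of Kcnq1ot1, and Slc22a18, a gene for a transporter of the organic cation family, were almost unseen in poly(A) RNA. At WAPL days 4 to 7 Kcnq1 had 0, 1 and 0 counts in dTAG-13 libraries and 1, 1 and 0 in DMSO libraries, and Slc22a18 had 2, 4 and 0 counts in dTAG-13 and 6, 1 and 1 in DMSO libraries (H7 replicate 1, H7 replicate 2 and H2). These values lie near the floor of 3 counts, so no fold change is given. Neither gene is in the other RNA tables that were used. In PRO-seq both had reads. Kcnq1 had 23.2 CPM in C4 and 27.3 CPM in G9 with dTAG-13, against 16.0 CPM in C4 and 17.7 CPM in G9 with DMSO, groups that did not overlap. Its log2 fold change was 0.57 (SE 0.13, adjusted p 0.00361, edgeR quasi-likelihood), with a DESeq2 adjusted p of 0.0881. Kcnq1ot1 lies within Kcnq1 on the other strand and, with the strand rule unknown, the Kcnq1 reads cannot be told apart from those of Kcnq1ot1. Slc22a18 had 1.38 and 0.687 CPM with dTAG-13 (C4 and G9), against 1.09 and 0.426 CPM with DMSO, a log2 fold change of 0.44 (SE 0.49, adjusted p 0.649, edgeR quasi-likelihood).

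**Figure D3:**
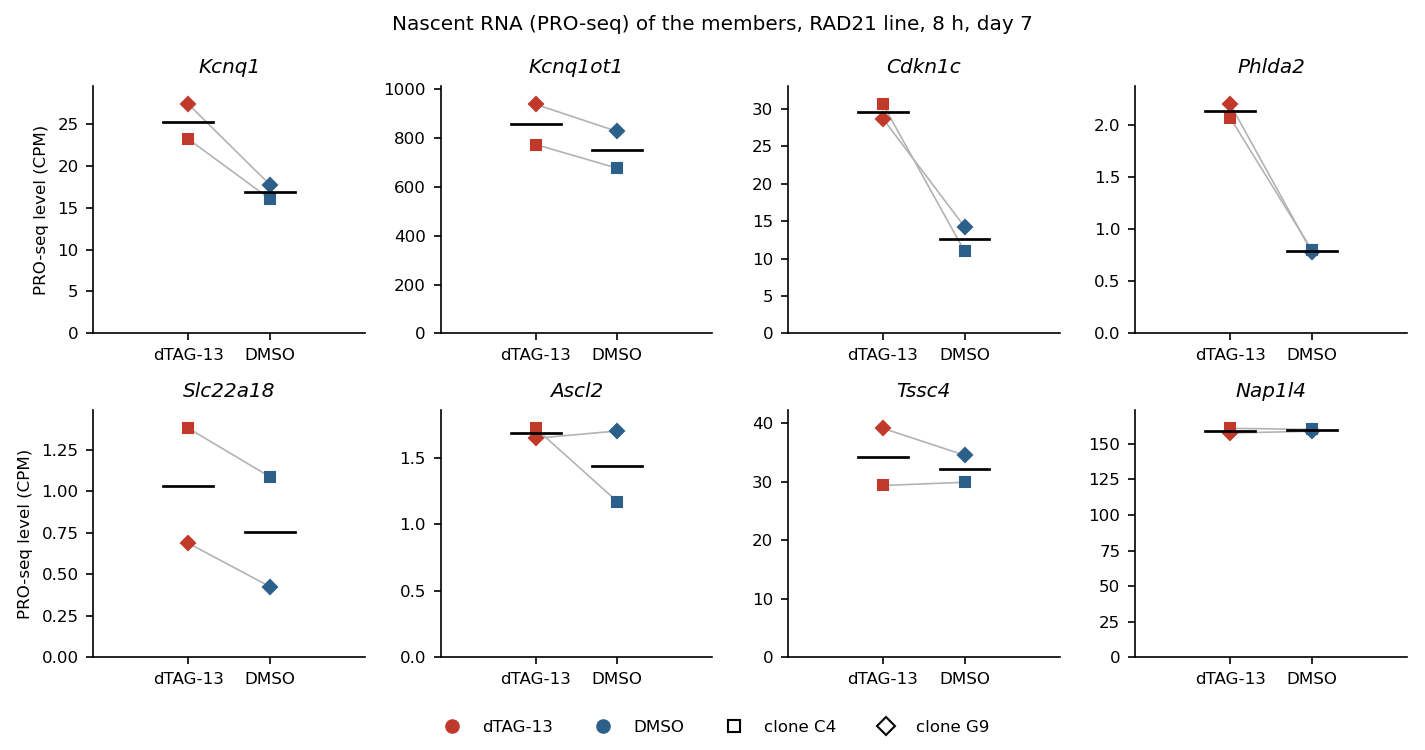
PRO-seq level in CPM (vertical axes, from 0) of the 8 members in the PRO-seq table for RAD21 clones C4 (squares) and G9 (diamonds), dTAG-13 in red on the left and DMSO in blue on the right, with lines joining a clone and bars at the means. Cdkn1c (30.6 and 28.7 CPM against 10.97 and 14.3 CPM), Phlda2 and Kcnq1 have both treated libraries above both DMSO libraries, and Nap1l4 lies between 157 and 161 CPM in all 4.

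Ascl2, Tssc4 and Nap1l4 were not called in any of the 4 dTAG-13 comparisons with all libraries. Ascl2 is a basic helix-loop-helix factor needed for the spongiotrophoblast of the placenta, and it had 5.10, 2.65 and 2.62 CPM in dTAG-13 and 2.25, 2.64 and 1.62 CPM in DMSO libraries at WAPL days 4 to 7. Its highest value came from 1 treated library, H7 replicate 1, and the log2 fold change was 0.63 (SE 0.29, adjusted p 0.178, edgeR quasi-likelihood). Without that library it was 0.29, and without dTAG-13 H7 replicate 2 it was 0.96 with an adjusted p of 0.0378 (edgeR quasi-likelihood). In the RAD21 line Ascl2 had 0.946 CPM in C4 and 1.27 CPM in G9 with dTAG-13, against 1.26 CPM in C4 and 1.97 CPM in G9 with DMSO. That was a log2 fold change of -0.52 (SE 0.32, adjusted p 0.287, edgeR quasi-likelihood). Its window above holds as many CCAAT boxes as that of Kcnq1ot1.

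Tssc4, a gene tied to assembly of the splicing machinery, stayed within narrow bounds. It had 26.2 to 37.8 CPM in dTAG-13 and 23.8 to 31.9 CPM in DMSO at WAPL days 4 to 7, a log2 fold change of 0.17 (SE 0.16, adjusted p 0.515, edgeR quasi-likelihood). In the RAD21 line it had 38.2 and 46.9 CPM with dTAG-13 and 38.5 and 46.3 CPM with DMSO (C4 and G9), so the clones differed and the treatments nearly coincided. Nap1l4, a histone chaperone gene at the edge of the domain, had 164 to 176 CPM in dTAG-13 and 168 to 180.1 CPM in DMSO at WAPL days 4 to 7 (log2 fold change -0.03, SE 0.09). In PRO-seq its log2 fold change was 0.00 (SE 0.07), the narrowest interval of any member there apart from Kcnq1ot1. Its direction turned with the scaling in both of these comparisons, at sizes of 0.01 or less.

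Neither Kcnq1ot1 nor the protein-coding members beyond H19 and Igf2 passed the threshold between DMSO libraries of day 10 and day 7. The log2 differences, day 10 over day 7, were -0.37 (SE 0.25) for Kcnq1ot1, -0.19 (SE 0.30) for Cdkn1c, -0.61 (SE 0.32) for Phlda2, -0.08 (SE 0.36) for Ascl2, 0.25 (SE 0.21) for Tssc4 and 0.13 (SE 0.09) for Nap1l4. Adjusted p ran from 0.321 for Phlda2 to 0.939 for Ascl2 (edgeR quasi-likelihood). For the difference between WAPL windows these 6 genes lay between -0.64 for Ascl2 and 0.19 for Kcnq1ot1, and H19 at -0.29, all with adjusted p of 1 in the same test.

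**Figure D4:**
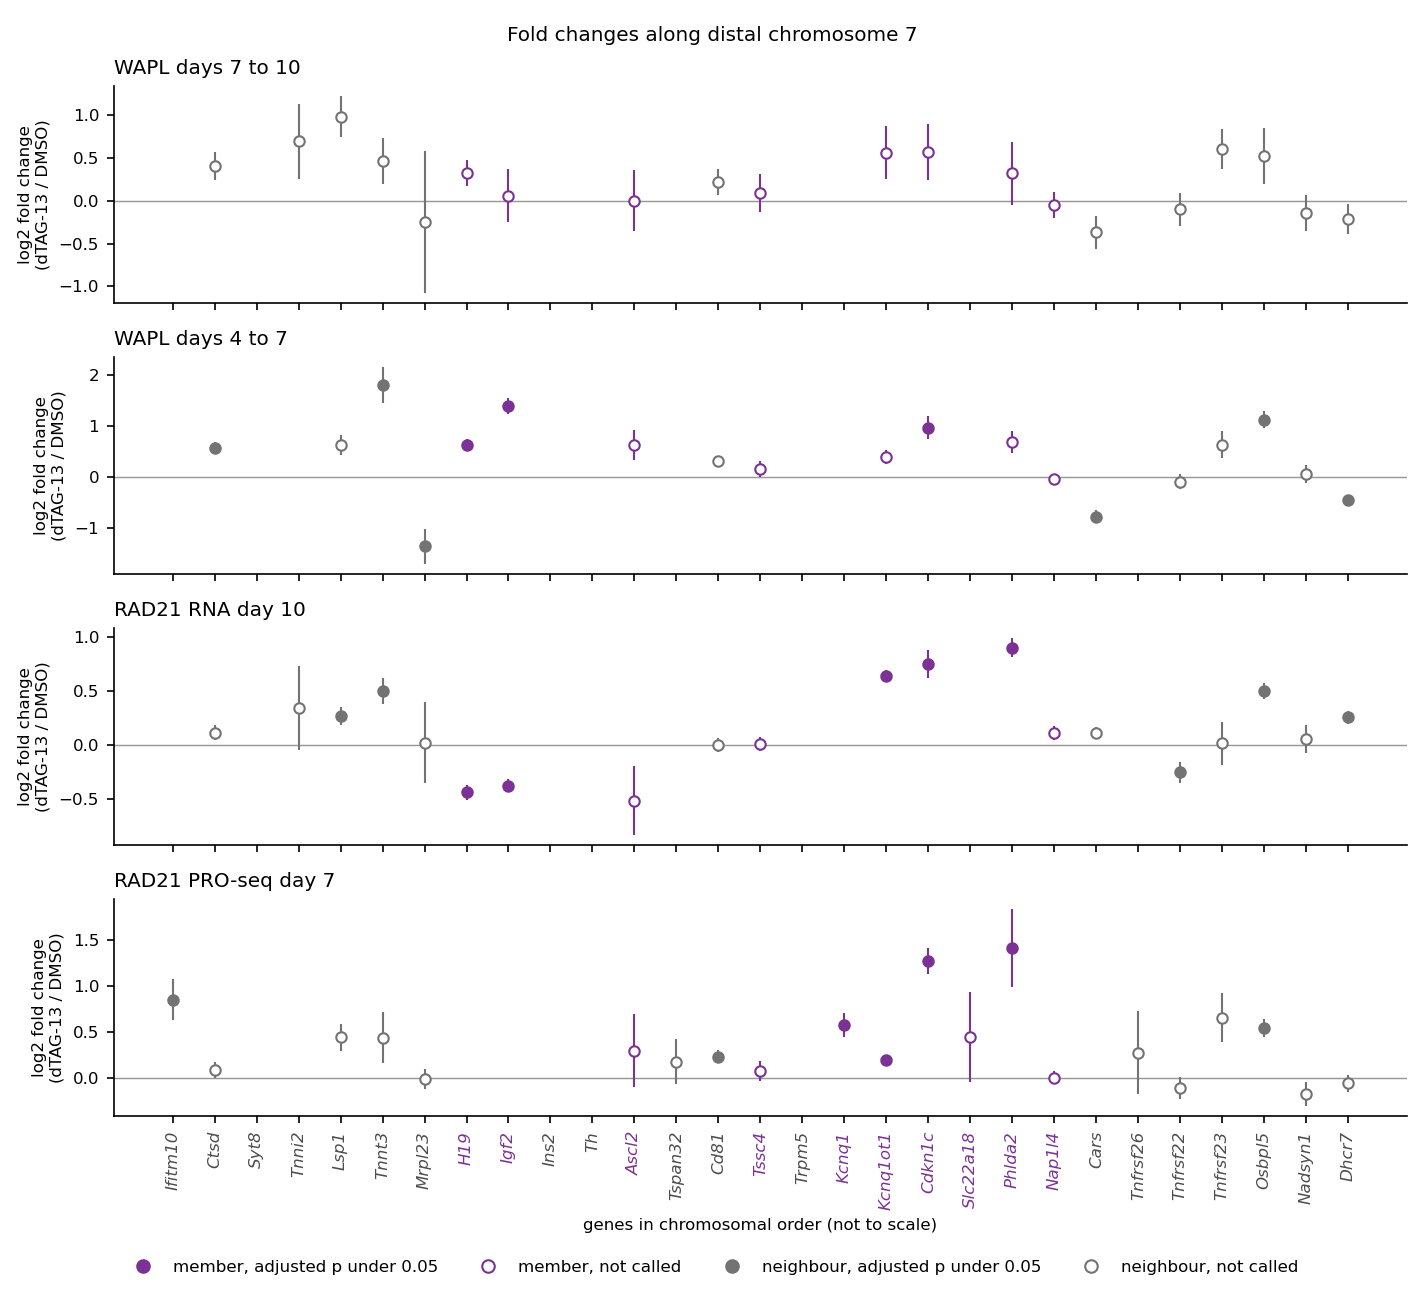
Log2 fold change of dTAG-13 over DMSO (vertical axes, points with SE bars) for members (purple) and other listed genes (grey) in their order on distal chromosome 7, not to scale, with the later and then the earlier WAPL treatment in the upper panels, then RAD21 RNA, then PRO-seq at the bottom. Filled points have an adjusted p under 0.05. In the RAD21 RNA panel H19 and Igf2 lie below 0 at -0.44 and -0.38, while Kcnq1ot1, Cdkn1c and Phlda2 lie above 0 at 0.64, 0.75 and 0.90.

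Some listed neighbours of the clusters were also called. Of 19 listed neighbours, 11 were tested at WAPL days 4 to 7, with 3 higher and 3 lower and a median log2 fold change of 0.31. Osbpl5, an oxysterol-binding protein gene beyond Nap1l4 that is imprinted in mouse placenta, rose by 1.13 on the log2 scale (SE 0.17, adjusted p 0.00613), and Cars, a transfer RNA synthetase gene next to Nap1l4, fell by 0.77 (SE 0.13, adjusted p 0.00815), by edgeR's quasi-likelihood test. Of 12 tested neighbours at WAPL days 7 to 10, 0 were called by that test. In RAD21 RNA 4 of 12 were higher and 1 lower (median 0.11), with Osbpl5 at 0.50 (adjusted p 7.46e-10) and Dhcr7, an enzyme of cholesterol synthesis, at 0.25 (adjusted p 0.000147) in edgeR's quasi-likelihood test. In PRO-seq 3 of 13 were higher and 0 lower (median 0.23), with Osbpl5 at 0.54 (adjusted p 0.000266) and Ifitm10 at 0.85 (adjusted p 0.0108) by the same test. Osbpl5 was also higher in DMSO at day 10 than at day 7, by 1.44 (SE 0.27, adjusted p 0.0222, edgeR quasi-likelihood). In that comparison 4 of 12 neighbours were higher and 0 lower. Of all genes tested, 9.46% were called higher and 5.73% lower at WAPL days 4 to 7, and 9.83% and 8.89% in RAD21 RNA. The shares were 5.9% and 4.66% in PRO-seq, and 4.47% and 1.53% between DMSO days. Osbpl5 was called higher with dTAG-13 at WAPL days 4 to 7 and in both RAD21 assays, in which Cdkn1c was also called higher.

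Growth partners of Igf2, at the level of protein or of mRNA, were counted in the same way. For all gene lists, the counts stand beside the shares of all genes called that were given with the members. The 14 tested genes encode receptors, binding proteins and docking proteins of the IGF pathway and proteins that bind Igf2 mRNA. In RAD21 RNA 3 were higher and 6 lower. Igf2bp1 (0.24) and Igf2bp3 (0.21), named here because they are of the mRNA-binding kind, were among the 3 higher. Igfbp3 and Igfbp5, secreted proteins that bind IGFs, had log2 fold changes of -1.91 (SE 0.07, adjusted p 9.12e-175) and -1.83 (SE 0.07, adjusted p 3.11e-143) by edgeR's quasi-likelihood test. All RAD21 values of listed genes, here and in other paragraphs, rest on 2 clones and 1 residual degree of freedom. Their SE and adjusted p thus depend on spread shared between genes. In PRO-seq 0 were higher and 5 of 14 lower, among them Irs2, an adaptor below the insulin and IGF1 receptors (-0.99, SE 0.07, adjusted p 2.92e-12), and Igfbp2 (-0.62, SE 0.08, adjusted p 3.74e-07, edgeR quasi-likelihood). In the WAPL line at days 4 to 7, 1 of 14 was higher and 0 lower, and that was Igfbp6, a binding protein that prefers IGF2 (1.44, SE 0.27, adjusted p 0.0119, edgeR quasi-likelihood). At WAPL days 7 to 10, 0 of 14 were called. Between DMSO libraries 4 of 14 were higher at day 10 than at day 7, with Igfbp4 at 2.05 (adjusted p 0.00105) and Igfbp6 at 1.47 (adjusted p 0.0182) in the same test. List medians lay between -0.06 in PRO-seq and 0.26 in the DMSO comparison.

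Of the genes that set or keep imprints, Dnmt3b was called lower in 3 of the 4 dTAG-13 comparisons. This de novo DNA methyltransferase gene fell by 0.93 at WAPL days 4 to 7 (SE 0.11, adjusted p 0.00297), by 0.38 in RAD21 RNA (SE 0.08, adjusted p 6.01e-05) and by 0.78 in RAD21 PRO-seq (SE 0.07, adjusted p 6.42e-10), on the log2 scale and by edgeR's quasi-likelihood test. It was the 1 gene of 14 tested that was called at WAPL days 4 to 7. In RAD21 RNA 1 of 14 was higher and 3 lower, with Hells, a chromatin remodeller of DNA methylation, at -0.28 (adjusted p 3.81e-05). In PRO-seq 2 of 14 were lower, the other being Trim28, the corepressor recruited by imprint-binding zinc fingers, at -0.26 (adjusted p 0.0174, edgeR quasi-likelihood). At WAPL days 7 to 10, 0 of 14 were called, though Dnmt3b had a log2 fold change of -0.85 (SE 0.27, adjusted p 0.701, edgeR quasi-likelihood). Between DMSO days 1 of 14 was lower, Dnmt3a (-0.75, adjusted p 0.0404, edgeR quasi-likelihood).

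Of the chromatin proteins that work with Kcnq1ot1, Polycomb subunits and histone H3 lysine 9 methyltransferases among them, 1 of 8 was lower at WAPL days 4 to 7, Ehmt2 (-0.46, SE 0.12, adjusted p 0.0398), and 1 of 8 in RAD21 RNA, Suz12 (-0.25, SE 0.06, adjusted p 0.000238), both by edgeR's quasi-likelihood test. None was higher in these comparisons, and 0 of 8 at WAPL days 7 to 10, 0 of 6 in PRO-seq and 0 of 8 between DMSO days were called by that test. List medians were -0.12 at WAPL days 4 to 7, 0.03 in RAD21 RNA and 0.04 in PRO-seq.

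Among 16 imprinted genes of the growth network elsewhere in the genome, 4 were higher and 0 lower at WAPL days 4 to 7. Grb10, an adaptor that dampens insulin and IGF signalling, had 0.94 (SE 0.13, adjusted p 0.00455), and Dcn, the matrix proteoglycan decorin, 1.15 (SE 0.21, adjusted p 0.0113), by edgeR's quasi-likelihood test. In RAD21 RNA 1 of 16 was higher and 5 lower, with Peg3 at -0.93 (SE 0.09, adjusted p 5.11e-23) and Plagl1, a zinc-finger factor of growth, at -0.75 (SE 0.09, adjusted p 4.73e-15, edgeR quasi-likelihood). In PRO-seq 3 of 14 were higher and 3 lower, with Sgce at 0.78 (adjusted p 4.93e-08) and Peg3 at -0.87 (adjusted p 3.38e-07) by the same edgeR test. Of the 16 at WAPL days 7 to 10, 0 were called, and between DMSO days 2 were higher and 1 lower. The list medians were 0.21 at both WAPL windows, -0.12 in RAD21 RNA, 0.10 in PRO-seq and 0.20 between DMSO days.

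Pluripotency markers moved with the RAD21 results. They were lower for 7 of 8 in RNA and for 6 of 8 in PRO-seq, with Sox2 at -0.75 in RNA and -0.80 in PRO-seq (adjusted p 1.19e-34 and 1.32e-05, edgeR quasi-likelihood). In PRO-seq the list summed to 371 to 524 CPM in dTAG-13 and 553 to 668 CPM in DMSO, without overlap. The trophoblast list had 2 of 9 markers higher and 4 lower in RNA and 0 of 9 higher and 2 lower in PRO-seq. In RNA it summed to 1842 to 2716 CPM in dTAG-13 and 1738 to 2205 CPM in DMSO, most of it from Krt8 and Krt18. Hand1, also a heart and mesoderm factor, was at -0.91 there (adjusted p 1.47e-28, edgeR quasi-likelihood).

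Calls in the other marker lists of the RAD21 line were as follows. In RNA, 1 of 10 feeder markers was higher and 3 lower, 2 of 7 parietal endoderm markers were higher, 3 of 8 visceral endoderm markers lower, 2 of 11 mesoderm markers higher and 1 lower, and 1 of 5 neural markers lower. In PRO-seq 0 of 8 feeder markers were called, 1 of 7 parietal endoderm markers was higher and 1 lower, 1 of 8 visceral endoderm markers higher, 1 of 9 mesoderm markers lower (T, a factor of early mesoderm, at -1.81), and 1 of 7 neural markers higher and 1 lower. Lum and Ttr were at 0 in both DMSO libraries of PRO-seq. Summed feeder markers were 342 to 355 CPM in dTAG-13 and 335 to 336 CPM in DMSO in RNA. Over all genes tested, 9.83% were called higher and 8.89% lower in RAD21 RNA, and 5.9% and 4.66% in PRO-seq. The part of these marker shifts in the member results was not tested. In the later WAPL treatment, 0 markers of any list were called by edgeR without matching. The trophoblast list there summed to 2305 to 2718 CPM in dTAG-13 and 1736 to 1952 CPM in DMSO, most of it from Krt8 and Krt18.

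Across the 14 RNA libraries, genes whose log2 CPM followed each of 4 members closely were ranked by Pearson's r among 11692 genes. Igf2 was followed by Hand1 (0.97), Efnb1 (0.95), Pon2 (0.95), Rcan1 (0.95) and Il10rb (0.94). H19 was followed by Mir675 (0.98), Dpm1 (0.96), Hand1 (0.91) and Vgf (0.91). Mir675 shares its reads with H19.

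Cdkn1c was followed by Irgm1 (0.98), Cxcl11 (0.96), Rin2 (0.89), Dio3 (0.88) and Lurap1l (0.88). Kcnq1ot1 was followed by Stim2 (0.87), Wars2 (0.85), 4933427D14Rik (0.83) and Zfp385a (0.83). No member stood among the 5 genes of another. The 14 libraries were scaled together for these values, over the genes present in all RNA tables. They share clones, days and tables, so the values describe the set and carry no test.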

How the data were processed

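Poly(A) RNA-seq was analysed in 14 libraries and PRO-seq in 4, grouped by the labels. The authors deposited raw gene counts for RNA. For PRO-seq the authors deposited estimated counts per gene, in steps of 0.5 with no further scaling seen, which were rounded to whole numbers for testing. Tools named in the submitters' processing notes were TopHat2, Novoalign, Bowtie2, cutadapt, bedtools, deepTools, Juicer, HOMER, DESeq and DESeq2, with the builds mm9, hg19 and dm6. The sources used here give no roles or versions for them, no counting rule and no use of strand. The earlier WAPL table listed 24421 genes, the later one 14997, RAD21 RNA had 15363 and PRO-seq 22529. Each was normalized on its own for the CPM levels and for the comparisons within it. The joint WAPL fit and the correlations scaled their libraries together, over shared genes. Members in the table numbered 10, 8, 8 and 8 in that order, and 8 were tested in each. RefSeq (GRCm38.p6) gave sequences, names and gene order only, and promoter entries were matched for 6 members.

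Tests used edgeR 4.0.16 (R 4.3.3). Low genes were dropped by filterByExpr (minimum count 10), libraries were scaled by TMM, and the quasi-likelihood F-test was run with Benjamini-Hochberg adjustment over all genes tested, and a threshold of 0.05. SE is the log2 fold change divided by the square root of F. Fits with more than 1 clone had a clone term. Residual degrees of freedom were 3 and 2 for the earlier and the later WAPL treatment, 1 for each RAD21 assay, and 5 for the joint WAPL fit. CPM are counts over library total times TMM factor. The floor of 3 counts was 0.0848 to 0.357 CPM. Scripts were tested on simulated data. Alternatives were DESeq2 1.42.0, RLE scaling, library totals, no filter, a mean count of 50, no clone term, a replicate block, clone H7 alone, each library left out and, added after the data were seen, edgeR's newer quasi-likelihood dispersion.

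The replicate numbers of WAPL days 4 to 7 pair the samples, as same-numbered libraries deviated together from their group means (r = 0.518, 0.537 and 0.634). Differently numbered H7 libraries had 0.023 and 0.112. The main fit there had a clone term only and did not use this pairing, which the replicate block does. At days 7 to 10 same-numbered libraries had r = 0.785, and the main fit did not use their numbers either. No replicates matched within sampling noise (chi-square per gene 12.2 to 54.1). Members and lists were chosen with earlier results of these data known. The rule for named genes takes all 10 members, up to 2 called genes with the smallest p per list, and the 5 most correlated genes for Igf2, H19, Cdkn1c and Kcnq1ot1, over genes with a mean log2 CPM of at least 2 (prior count 2); some genes under this last rule are not reported here. Figures were drawn with matplotlib 3.10.9.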

Additional observations from a re-analysis of the deposited data

Results flagged for a closer look

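Fold changes within the RAD21 clones had opposite signs for 4 values, all small or at low counts, and none of these differences between clones was tested. Tssc4 RNA changed by -0.01018 in C4 and 0.01883 in G9 on the log2 scale of dTAG-13 over DMSO. In PRO-seq, Tssc4 changed by -0.02683 in C4 and 0.1798 in G9, Nap1l4 by 0.007136 in C4 and -0.0116 in G9, and Ascl2 by 0.556 in C4 and -0.04726 in G9. No member differed in sign between clones H2 and H7 at WAPL days 4 to 7. Groups held 2 or 3 libraries, too few to look for single libraries far from the rest.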

How the results depend on the processing

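At WAPL days 4 to 7, 3993 genes and 5 members were called with the replicate block, 994 genes with no clone term and 360 in clone H7 alone, against 2209 and 3. At WAPL days 7 to 10 no label ties the 2 same-numbered pairs beyond clone, day and number, though they deviated together (r = 0.785). The block there called 5141 genes and 3 members, and DESeq2 called 44 genes. The members were H19, Kcnq1ot1 and Cdkn1c, with edgeR adjusted p of 0.00375, 9.65e-09 and 0.0319. For RAD21 RNA, DESeq2 called 472 genes and 3 members and a fit with no clone term 1 and 0; for PRO-seq these were 514 and 1, and 0 and 0. For the window difference DESeq2 called 4 genes and the block 5 genes and 1 member (Igf2). Between DMSO days DESeq2 called 1520 genes and clone H7 alone 358. Without 1 library, calls ran from 341 to 4432 genes and 1 to 5 members (WAPL days 4 to 7), 27 to 143 and 0 (days 7 to 10), 16 to 94 and 0 to 1 (RAD21 RNA, clone term dropped), 0 and 0 (PRO-seq, clone term dropped), 0 and 0 (window difference) and 168 to 845 and 1 to 2 (DMSO days).

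Igf2 at WAPL days 4 to 7 stayed past the threshold under every alternative. Phlda2 passed it there with no filter (adjusted p 0.0204) and with DESeq2 (0.039), H19 missed it with no clone term (0.0961, edgeR) and Cdkn1c in clone H7 alone (0.172, edgeR). Signs turned for uncalled values: Nap1l4 at WAPL days 4 to 7 with library totals (0.00854), Ascl2 at days 7 to 10 with library totals (0.017) and DESeq2 (0.0109), Tssc4 in RAD21 RNA with library totals (-0.044) and a mean count of 50 (-0.00375), and Nap1l4 in PRO-seq with RLE, a mean count of 50 and DESeq2 (0.00577, 0.00564 and 0.00565). The causes were not tested.

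With 1 library left out, values that turned ran from -0.26 to 0.49 (Igf2), -0.36 to 0.37 (Ascl2), -0.11 to 0.69 (Phlda2), -0.0785 to 0.28 (Tssc4) and -0.11 to 0.0189 (Nap1l4) at WAPL days 7 to 10. In RAD21 RNA they ran from -1.08 to 0.34 (Igf2) and -0.15 to 0.14 (Tssc4). In PRO-seq they ran from -0.21 to 1.29 (Slc22a18), -0.0146 to 0.53 (Ascl2), -0.13 to 0.28 (Tssc4) and -0.0189 to 0.0114 (Nap1l4). The RAD21 values had no clone term, so they also hold the difference in level between clones. Within clones, Igf2 RNA changed by -0.33 in C4 and -0.43 in G9. For the window difference they ran from -0.15 to 0.54 (Kcnq1ot1), -0.26 to 0.086 (Tssc4) and -0.0835 to 0.0268 (Nap1l4), and between DMSO days from -0.25 to 0.11 (Ascl2). Depth limits Kcnq1 and Slc22a18 in RNA and Phlda2, Slc22a18 and Ascl2 in PRO-seq. With 1 residual degree of freedom the RAD21 adjusted p depend on spread shared between genes.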
